A study of Mus musculus with 16 samples.

Results

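Cytotoxic lymphocytes, above all natural killer (NK) cells and CD8 T cells, are known by a small set of effector genes, and 10 of these were followed here in lymph node macrophage preparations. They are the granule genes Gzma, Gzmb, Prf1 and Nkg7, the receptor genes Ncr1, Klrb1c, Klrd1 and Klrk1, and the transcription factor genes Eomes and Tbx21. They were listed by symbol, at a time when earlier results of these data were known, and their rows were found by Ensembl identifier among the 55421 gene rows of the count table. RNA was sequenced from sub-capsular sinus macrophages (SSMs) and medullary sinus macrophages (MSMs), each sorted from tumor-draining lymph nodes (tdLN) and non-draining lymph nodes (ndLN). These make 4 groups with 2 libraries each, and a library holds the reads of 2 lanes. The labels number the nodes 1 and 2, which is read here as the pool, although the methods of the study describe more pools than these numbers give. All 4 groups came from male C57B/6 mice that carried a MOC2 squamous cell carcinoma, implanted intradermally as 500000 cells in the flank 2 weeks earlier, so that ndLN are nodes of tumor-bearing animals and no node of a tumor-free mouse was compared. A pool combined 2 mice, with 2 tdLN or 6 ndLN, and about 10000 cells were sorted per preparation. The ndLN were inguinal, axillary and brachial nodes of the opposite side, whereas the tumor was placed close to the inguinal node. Between tdLN and ndLN, drainage of the tumor and the site of the node therefore cannot be told apart. SSMs were gated as live CD45+ CD3- B220- Ly6G- CD11b+ CD169+ cells that were CD11c- with low side scatter, and MSMs as the same cells that were CD11c+ with high side scatter. None of the markers of the gate is encoded by these 10 genes. Since both subsets and both nodes of a pool may share mice, and only 2 libraries stand for a group, p-values measure the spread between these libraries.

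NK cells kill by releasing granules into the contact with a target cell. Perforin opens the target's membrane, and granzymes, which are serine proteases, enter and start cell death. Whether an NK cell releases its granules depends on activating and inhibitory receptors, many of them encoded side by side in the NK gene complex on mouse chromosome 6. The T-box factors Eomes and T-bet (Tbx21) direct the maturation of NK cells and of cytotoxic T cells, and T-bet also serves type 1 innate lymphoid cells. In lymph nodes, NK cells lie near the sinuses, beside the macrophages that line them. Several of these genes are shared among lymphocytes, so that none of them marks a single cell type by itself.

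The depth of the 8 libraries was even, with 42972328 to 48130352 reads on genes. CPM is the unit of reads scaled to library size. By library size alone, before the TMM factors named below, 3 reads correspond to between 0.0623 and 0.0698 CPM. Every one of the 10 genes had at least 37 reads in every library, and all 10 passed the filter on low counts, which left 21085 genes for testing. CPM values below are scaled by the TMM factors of edgeR and are given in the order pool 1, then pool 2. The sort markers Siglec1 (CD169) and Itgam (CD11b) were read in all libraries. Siglec1 was at 15.1 and 8.47 CPM in SSMs from ndLN, 70.0 and 59.2 CPM in tdLN SSMs, 0.795 and 1.63 CPM in MSMs from ndLN and 5.96 and 5.64 CPM in tdLN MSMs. Itgam was at 67.5 and 54.55 CPM in SSMs from ndLN and 124 and 90.2 CPM in tdLN SSMs. In MSMs Itgam was at 9.64 and 10.7 CPM in ndLN and 20.4 and 13.7 CPM in tdLN. Transcripts of both gated proteins were therefore lower in MSMs than in SSMs, and lowest in MSMs from ndLN. These are bulk samples, and in them fewer cells of a type and less RNA per cell cannot be told apart.

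To show the DNA in front of genes that will be compared below, promoters are given for 3 granule genes (Gzma, Gzmb, Prf1), for Ncr1, and for Klrk1, the gene whose level differed least between SSMs and MSMs. The bases end just before the RefSeq transcription start on GRCm38.p6 (mm10), or for Prf1 3 bases ahead of it, where an annotated exon begins, and are written 5′ to 3′ on the strand of the gene. They span chr13:113100982-113101231 (minus strand) for Gzma, chr14:56262335-56262584 (minus) for Gzmb, chr10:61297586-61297832 (plus) for Prf1, chr7:4337465-4337714 (plus) for Ncr1 and chr6:129623865-129624114 (minus) for Klrk1. Capitals mark AGGTGT, the core bound by T-box factors, and TGTGGT, the core bound by RUNX factors, on either strand (reverse complements ACACCT and ACCACA).
Gzma promoter: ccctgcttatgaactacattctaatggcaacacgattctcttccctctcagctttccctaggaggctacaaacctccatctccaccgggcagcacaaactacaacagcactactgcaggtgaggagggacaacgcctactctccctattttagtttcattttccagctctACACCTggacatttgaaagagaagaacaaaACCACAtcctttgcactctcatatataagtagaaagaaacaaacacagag
Gzmb promoter: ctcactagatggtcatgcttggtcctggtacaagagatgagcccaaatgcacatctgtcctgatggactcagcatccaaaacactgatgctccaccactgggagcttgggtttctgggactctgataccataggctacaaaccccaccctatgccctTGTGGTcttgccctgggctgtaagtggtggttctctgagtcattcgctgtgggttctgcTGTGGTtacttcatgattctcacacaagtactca
Prf1 promoter: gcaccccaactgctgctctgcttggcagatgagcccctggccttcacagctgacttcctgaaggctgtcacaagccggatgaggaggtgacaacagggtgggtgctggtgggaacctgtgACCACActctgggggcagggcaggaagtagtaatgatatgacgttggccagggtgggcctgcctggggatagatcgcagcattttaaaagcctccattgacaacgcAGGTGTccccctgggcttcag
Ncr1 promoter: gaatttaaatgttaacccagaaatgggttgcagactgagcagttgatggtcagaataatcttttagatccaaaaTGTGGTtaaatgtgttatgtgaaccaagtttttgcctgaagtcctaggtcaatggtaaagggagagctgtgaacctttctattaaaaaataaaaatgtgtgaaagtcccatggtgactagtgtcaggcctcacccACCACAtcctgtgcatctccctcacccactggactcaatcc
Klrk1 promoter: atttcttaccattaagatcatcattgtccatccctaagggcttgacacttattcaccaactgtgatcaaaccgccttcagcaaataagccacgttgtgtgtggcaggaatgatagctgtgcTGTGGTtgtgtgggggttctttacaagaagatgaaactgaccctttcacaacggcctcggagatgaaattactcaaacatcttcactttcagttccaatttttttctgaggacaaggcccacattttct

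RefSeq promoters of 9 of the 10 genes were at hand, each searched over 250 bases, and Klrd1 was not covered. AGGTGT was found in 3 of the 9 windows, those of Gzma, Prf1 and Nkg7, against 11.8% of 32851 mouse promoters of the same length. Its first base lay 80, 24 and 14 bases upstream of the start, respectively. TGTGGT was found in 7 of 9 windows against 14.05% of all promoters, with 2 matches in Gzmb (93 and 34 bases upstream) and 2 in Ncr1 (176 and 41), and in neither Eomes nor Tbx21. The STAT motif TTCNNNGAA was found in 1 window, that of Nkg7 at 220 bases, against 7.02% of all promoters. The motifs do not overlap each other in these windows, and a match describes letters, not binding. The window of Klrb1c begins within an annotated exon of the gene. That of Nkg7 reaches an annotated exon after 185 bases, and its AGGTGT match lies beyond that point.

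The granule genes were abundant in all SSM libraries and low in all MSM libraries. Gzma, a granzyme on chromosome 13 (113093825-113100981, minus strand), was at 872 and 570 CPM in SSMs from ndLN, 524 and 852 CPM in tdLN SSMs, 9.23 and 24.5 CPM in MSMs from ndLN and 4.53 and 8.12 CPM in tdLN MSMs. Gzmb, the granzyme that cuts after aspartate and activates caspases (chromosome 14, 56258838-56262260, minus strand), was at 826 and 772 CPM, 512 and 758 CPM, 21.8 and 43.2 CPM, and 2.38 and 6.32 CPM in the same order of groups. SSM and MSM libraries did not overlap for either granzyme, and for both the lowest values were those of MSMs from tdLN. Prf1 (chromosome 10, 61297833-61304680, plus strand), the pore-forming perforin, was at 432 and 385 CPM in SSMs from ndLN and 239 and 318 CPM in tdLN SSMs. In MSMs Prf1 was at 7.46 and 11.1 CPM in ndLN and 2.08 and 1.19 CPM in tdLN. Nkg7 (chromosome 7, 43437073-43438249, plus strand), a granule membrane protein needed for exocytosis, was at 611 and 438 CPM, 349 and 532 CPM, 15.9 and 26.0 CPM, and 6.57 and 10.2 CPM in the order used for Gzma. For all 4 granule genes the MSM libraries from tdLN lay below those from ndLN, whereas the SSM libraries of the nodes overlapped for Gzma and Nkg7.

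The receptor genes split into Ncr1 and Klrb1c, which were at a few CPM at most in MSM libraries, and Klrd1 and Klrk1, which were read well in both subsets. Ncr1 (chromosome 7, 4337724-4345164, plus strand) encodes NKp46, the activating receptor by which NK cells of most mammals are recognized. It was at 144 and 113 CPM in SSMs from ndLN, 97.6 and 141 CPM in tdLN SSMs, 1.10 and 1.76 CPM in MSMs from ndLN and 1.33 and 2.62 CPM in tdLN MSMs. Klrb1c, which encodes the NK1.1 antigen of C57BL/6 mice (chromosome 6, 128778485-128789215, minus strand), showed the same split, with 141 and 116 CPM, 86.2 and 112 CPM, 1.21 and 1.94 CPM, and 0.897 and 1.81 CPM in the same order of groups. Its value is uncertain to the extent that reads were shared: 17.0% of its 50-base windows also occur in other genes, namely Klrb1a, Klrb1b, the pseudogene Klrb1-ps1 and Gm44511, which overlaps it on the same strand. Klrd1 (chromosome 6, 129591782-129598775, plus strand) encodes CD94, which pairs with NKG2 chains. Klrd1 was at 104 and 76.0 CPM in SSMs from ndLN, 66.4 and 97.4 CPM in tdLN SSMs, 19.2 and 34.1 CPM in MSMs from ndLN and 24.8 and 22.2 CPM in tdLN MSMs. Every MSM library of Klrd1 lay below every SSM library. Klrk1 (chromosome 6, 129610323-129623864, minus strand) encodes NKG2D, the activating receptor for stress-induced ligands. Klrk1 was at 315 and 291 CPM in SSMs from ndLN, 244 and 269 CPM in tdLN SSMs, 264 and 183 CPM in MSMs from ndLN and 195 and 217 CPM in tdLN MSMs. Within a node the SSM libraries lay above the MSM libraries, but across nodes they overlapped.

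The T-box genes differed from each other in MSMs. Eomes (chromosome 9, 118478212-118486132, plus strand) was at 76.9 and 63.5 CPM in SSMs from ndLN, 47.4 and 58.7 CPM in tdLN SSMs, 2.69 and 1.27 CPM in MSMs from ndLN and 1.24 and 0.881 CPM in tdLN MSMs. Gm33460 is annotated antisense to Eomes, and 2.10% of the 50-base windows of Eomes occur elsewhere, so that a small part of its count could come from other transcripts. Tbx21 (chromosome 11, 97098071-97115331, minus strand) was at 163 and 144 CPM, 101 and 112 CPM, 35.3 and 40.6 CPM, and 21.7 and 20.3 CPM in the same order. Per kb of exon, the level of Tbx21 in MSMs from ndLN was 15.2 ± 1.50 CPM (SD, n = 2), and that of Eomes was 0.477 ± 0.242 CPM.

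**Figure D1:**
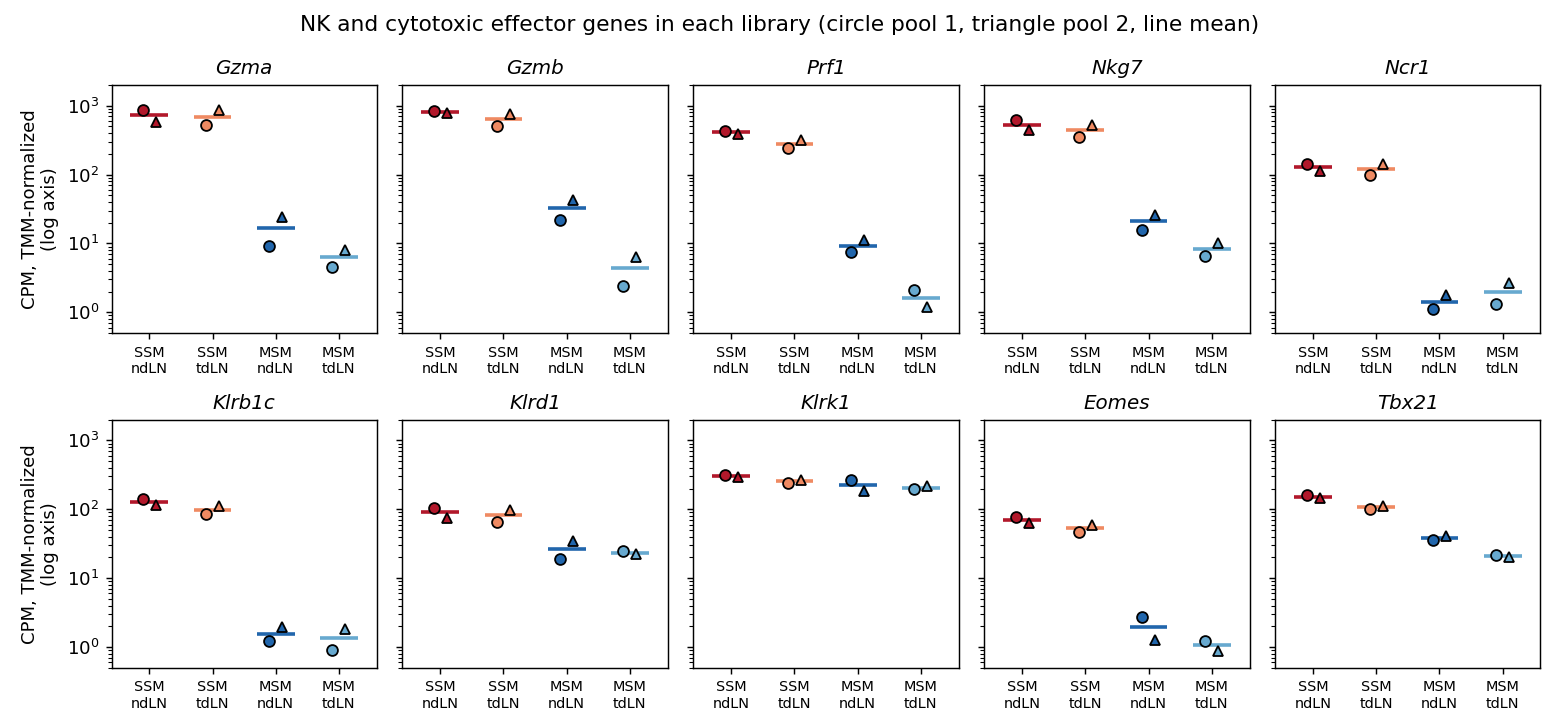
CPM after TMM scaling (log axis) of the 10 genes in each of the 8 libraries, with circles for pool 1, triangles for pool 2 and a line at the mean of the 2 libraries of a group. The SSM libraries lie above the MSM libraries of the same node for each gene, by a wide margin for Ncr1 (113 to 144 CPM against 1.10 to 1.76 CPM in ndLN) and by a narrow one for Klrk1 (291 to 315 CPM against 183 to 264 CPM).

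Levels can be ranked between genes once divided by exon length. In SSMs from ndLN the order began with Gzma at 717 ± 213 CPM per kb (SD, n = 2), Nkg7 at 574 ± 134 CPM per kb and Gzmb at 557 ± 26.6 CPM per kb, which overlapped from neighbour to neighbour. Prf1 followed at 158 ± 12.9 CPM per kb, apart from its neighbours on both sides. Ncr1 (83.6 ± 14.1 CPM per kb), Klrd1 (70.4 ± 15.7) and Tbx21 (61.6 ± 5.36) formed an overlapping series, as did Klrb1c (43.5 ± 6.06) and Klrk1 (42.1 ± 2.38), and Eomes was last at 16.9 ± 2.28 CPM per kb. The order in SSMs from tdLN differed only by an exchange of Klrk1 and Klrb1c, which overlapped there too. In MSMs the order was another one. Klrk1 was first in both nodes, at 31.1 ± 8.04 CPM per kb in ndLN and 28.6 ± 2.17 in tdLN, while Klrb1c and Eomes were last, at 0.531 ± 0.175 and 0.477 ± 0.242 CPM per kb in ndLN and 0.456 ± 0.217 and 0.255 ± 0.0605 in tdLN. From Klrk1 down to Tbx21, the first 6 genes of MSMs from ndLN overlapped from neighbour to neighbour. In MSMs from tdLN, Klrk1 was apart from Klrd1 (18.3 ± 1.42 CPM per kb), Klrd1 was apart from Nkg7 (9.16 ± 2.79), and Nkg7 overlapped with Tbx21 (8.45 ± 0.384). The annotated exons of Klrk1 cover 7183 bases and its longest transcript 3259, and with the latter as its length its level in SSMs from ndLN became 92.9 CPM per kb and its rank 6 in place of 9, whereas its rank in MSMs stayed first.

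Ratios within a library do not depend on depth, and they differed between the groups. Gzmb over Ncr1, each per kb, was between 5.62 and 7.30 in the 4 SSM libraries, 21.2 and 26.3 in MSMs from ndLN and 1.91 and 2.59 in tdLN MSMs. Prf1 over Ncr1 went the same way, at 1.34 to 2.02 in SSMs, 4.03 and 3.76 in MSMs from ndLN and 0.932 and 0.270 in tdLN MSMs. The MSM libraries of the nodes thus fell on either side of the SSM libraries for both ratios. Klrk1 over Klrd1 was 0.493 to 0.682 in SSMs, 2.46 and 0.954 in MSMs from ndLN and 1.401 and 1.74 in tdLN MSMs. Ncr1 in MSMs rests on few reads, with 43 in the shallowest case.

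To compare the subsets, SSMs were set against MSMs within each node by edgeR's quasi-likelihood test with the pool in the model, and a gene was called at a Benjamini-Hochberg adjusted p under 0.01 and a mean normalized count over 100. In ndLN, 9 of the 10 genes were called higher in SSMs, where 6.01% of all genes tested were called higher and 6.06% lower (12.1% in either direction). In tdLN the same 9 genes were called higher, against 5.16% of all genes (3.53% were called lower and 8.69% in either direction). Klrk1 was the gene not called in either node. The median log2 fold change of the 10 genes was 4.94 in ndLN and 5.80 in tdLN, beside 0.09 and 0.02 over all genes tested. The libraries of SSMs lay above those of MSMs without overlap for 10 of 10 genes in each node, as they did for 30.7% of all genes in ndLN and 29.5% in tdLN.

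Sizes differed widely among the genes called. The mean CPM was 89.9-fold higher in SSMs than in MSMs for Ncr1 in ndLN, with a log2 fold change of 6.50 (SE 0.364, adjusted p = 3.47e-05 by edgeR's quasi-likelihood test), and 60.3-fold in tdLN, with 5.89 (SE 0.346, adjusted p = 7.98e-05 by the same edgeR test). Klrb1c was 81.9-fold higher in ndLN, at a log2 fold change of 6.35 (SE 0.322), and 73.2-fold in tdLN, at 6.17 (SE 0.328). The granule genes had the wider gap in tdLN. Gzmb was 24.6-fold higher in SSMs in ndLN (log2 fold change 4.71, SE 0.307) and 146-fold in tdLN (7.20, SE 0.365), and Prf1 was 44.0-fold higher in ndLN (5.47, SE 0.263) and 170-fold in tdLN (7.42, SE 0.319). For Gzma the log2 fold change was 5.54 (SE 0.464) in ndLN and 6.75 (SE 0.501) in tdLN, and for Nkg7 4.70 (SE 0.323) and 5.71 (SE 0.348). Whether these gaps differed between the nodes was tested by the interaction described further on. Eomes was 35.5-fold higher in ndLN (5.17, SE 0.324) and 50.1-fold in tdLN (5.66, SE 0.357), while Tbx21, the related factor, was 4.04-fold (2.02, SE 0.163) and 5.08-fold higher (2.34, SE 0.169). The adjusted p of the 8 genes named so far lay at or below 0.000175 in both nodes by edgeR's quasi-likelihood test.

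Klrd1 and Klrk1 had the smallest differences. Klrd1 was 3.38-fold higher in SSMs in ndLN, at a log2 fold change of 1.79 (SE 0.312, adjusted p = 0.00515 by edgeR's quasi-likelihood test), and 3.49-fold in tdLN, at 1.79 (SE 0.314, adjusted p = 0.00711). The call on Klrd1 was lost in ndLN when any library other than pool 2 of SSMs from ndLN was left out, with log2 fold changes of 1.33 to 2.24 and adjusted p values up to 0.0545 by the same edgeR test, and in tdLN when any of the 4 libraries compared was left out (1.52 to 2.03, up to 0.0985). Klrk1 had a log2 fold change of 0.44 in ndLN (95% interval 0.01 to 0.87, adjusted p = 0.131 by edgeR's quasi-likelihood test) and of 0.32 in tdLN (-0.11 to 0.75, adjusted p = 0.320). The upper ends of these intervals lie below the lower ends of those of the other 9 genes in the same node (1.06 or more in ndLN, 1.05 or more in tdLN).

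**Figure D2:**
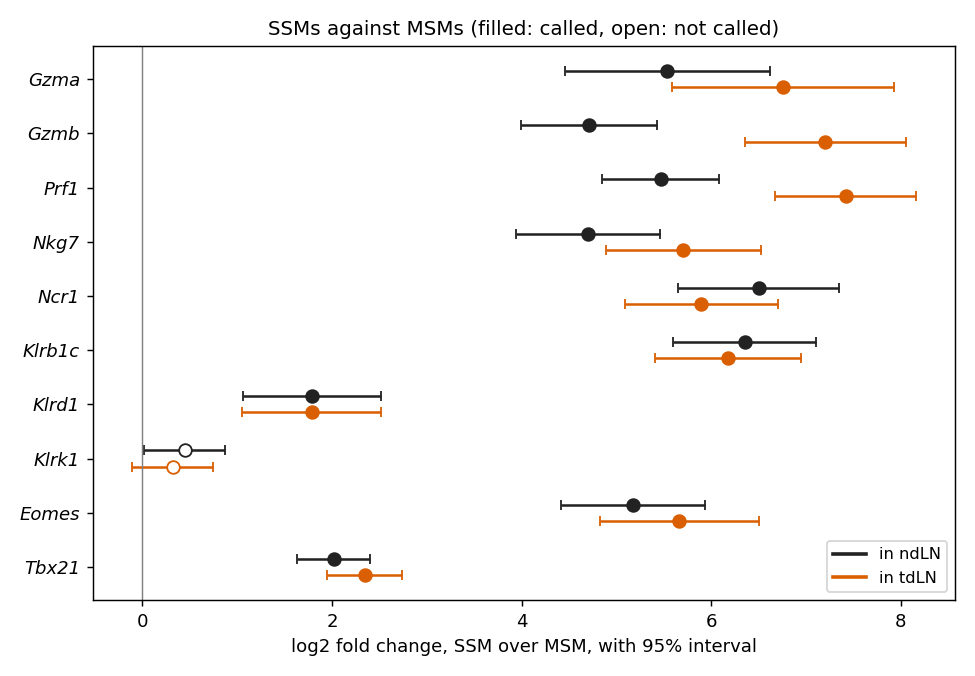
Log2 fold change of SSMs over MSMs with its 95% interval for the 10 genes, in ndLN (black) and tdLN (orange), where filled points were called and open points were not. Of the 10 genes, 9 were called higher in SSMs in both nodes, from 1.79 for Klrd1 to 7.42 for Prf1 in tdLN, and the points of Klrk1 lie at 0.44 and 0.32.

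Next, tdLN was compared with ndLN within SSMs, a comparison in which drainage and node site are not separated. None of the 10 genes was called by edgeR's quasi-likelihood test, while 3.04% of all genes tested were called in SSMs (1.99% higher and 1.05% lower in tdLN). At an unadjusted p under 0.05 there were 2 of the 10, Tbx21 and Prf1, beside 23% of all genes, and with the Wald test of DESeq2 1 of the 10 was called, Tbx21, beside 9.16% of all genes. Each of these shares is near its background. All 10 point estimates were below 0, from -0.57 for Prf1 (SE 0.206) to -0.14 for Ncr1 (SE 0.238), with a median of -0.35 beside -0.04 over all genes. The sign was not stable for 5 of them: without the pool 1 library of SSMs from ndLN the log2 fold changes of Gzma, Gzmb, Nkg7, Ncr1 and Klrd1 turned positive, at 0.70, 0.11, 0.30, 0.35 and 0.30. The libraries of the nodes did not overlap for 6 of the 10 genes, as was the case for 51.9% of all genes. For Tbx21 the log2 fold change was -0.52 (95% interval -0.88 to -0.16, adjusted p = 0.0812 by edgeR's quasi-likelihood test), and for Gzma it was -0.17 (-1.04 to 0.70).

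In MSMs the granule genes had the largest differences between nodes among the 10 genes, at levels of 43.2 CPM or less in every library. None of the 10 genes was called by edgeR's quasi-likelihood test, where 0.0237% of all genes tested were called (5 of 21085). At an unadjusted p under 0.05 there were 5 of the 10, beside 11.9% of all genes, and the Wald test of DESeq2 called 4, Gzmb, Prf1, Nkg7 and Tbx21, beside 2.35% of all genes. Gzmb went from a mean of 32.5 ± 15.1 CPM in MSMs from ndLN to 4.35 ± 2.79 CPM (SD, n = 2) in those from tdLN, a ratio of 0.134. Its log2 fold change was -2.89 (SE 0.349, 95% interval -3.71 to -2.07, adjusted p = 0.0284 by edgeR's quasi-likelihood test). For Prf1 the means were 9.28 ± 2.57 and 1.64 ± 0.633 CPM (SD, n = 2), with a log2 fold change of -2.52 (SE 0.364, adjusted p = 0.0418 by the same edgeR test). Both stood above the 0.01 threshold used here and below 0.05, a limit that 0.441% of all genes passed. Nkg7 had a log2 fold change of -1.32 (SE 0.339, adjusted p = 0.189), Gzma of -1.38 (SE 0.490, adjusted p = 0.327) and Tbx21 of -0.85 (SE 0.170, adjusted p = 0.112) in the same edgeR fit. The median of the 10 was -0.87 beside 0.01 over all genes. The receptor genes differed less, with -0.22 for Klrb1c, -0.17 for Klrd1, -0.11 for Klrk1 and 0.46 for Ncr1, and the interval of Ncr1 ran from -0.81 to 1.73. The libraries of the nodes did not overlap for the 4 granule genes and the T-box genes, 6 of 10, as for 38.5% of all genes. The 12 T cell markers had a median log2 fold change of -2.32 in the same comparison. Among other lymphoid lists described below, the median was -2.36 for gamma delta T cell receptor genes and -2.26 for type 3 innate-like markers. It was -1.03 for markers of type 1 innate lymphoid cells, -0.53 for those of type 2 and -0.86 for B cell markers. The T cell markers summed to 881 and 760 CPM in MSMs from ndLN and 506 and 538 CPM in those from tdLN. Cd8a was the largest part of these sums, at 605 and 386.5 CPM in ndLN and 357 and 439 CPM in tdLN. The libraries of the nodes overlapped for Cd8a. The part of T cells or of other lymphocytes in the difference of the granule genes was not tested.

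The interaction tested whether the node difference in SSMs departed from that in MSMs, which is the same as asking whether the gap between subsets differed between nodes. It called none of the 10 genes by edgeR's quasi-likelihood test, beside 0.0379% of all genes tested. At an unadjusted p under 0.05 there were 2, Gzmb and Prf1, beside 12.3% of all genes, and DESeq2's Wald test called the same 2, beside 3.21% of all genes. The interaction was 2.49 for Gzmb (SE 0.437, 95% interval 1.47 to 3.51, adjusted p = 0.0537 by edgeR's quasi-likelihood test) and 1.95 for Prf1 (SE 0.428, 0.95 to 2.95, adjusted p = 0.0979). For Gzma it was 1.22 (SE 0.618, adjusted p = 0.508), for Nkg7 1.01 (SE 0.434, adjusted p = 0.412) and for Ncr1 -0.60 (SE 0.593, adjusted p = 0.813), again in the edgeR fit.

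**Figure D3:**
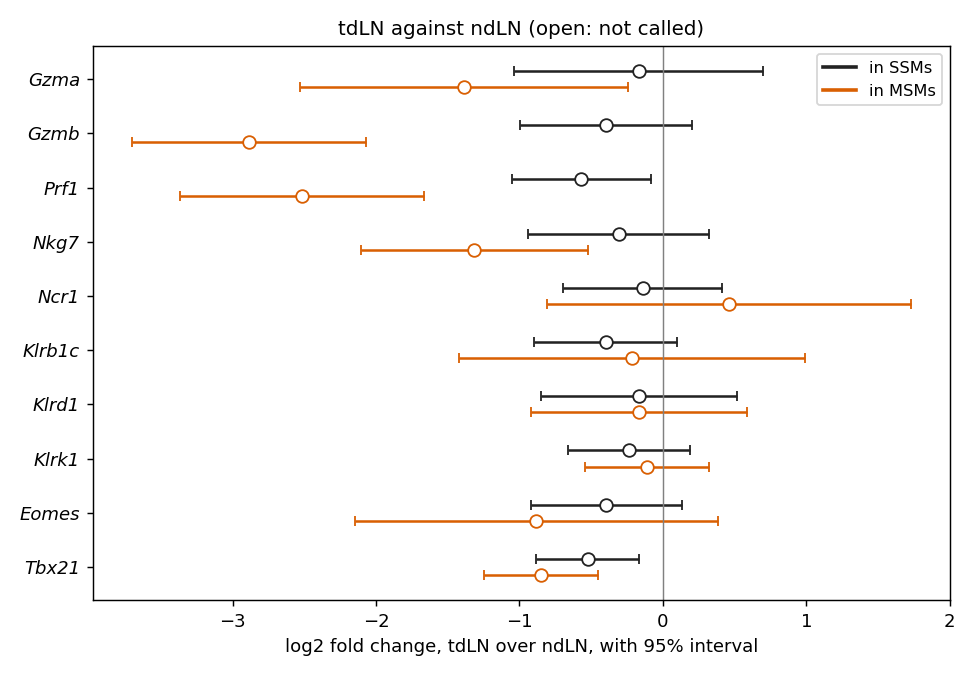
Log2 fold change of tdLN over ndLN with its 95% interval for the 10 genes, in SSMs (black) and in MSMs (orange), with open points because none was called. The points of SSMs lie between -0.57 and -0.14, and those of MSMs reach -2.89 for Gzmb and -2.52 for Prf1.

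Klrb1c, Klrd1 and Klrk1 belong to the NK gene complex, and their neighbours were read along it. The complex as taken here held 18 killer lectin-like receptor genes between positions 128609227 and 130386874 of chromosome 6 (mm10), 16 of them with a mean normalized count over 100. In SSMs against MSMs from ndLN, 14 of the 18 were called higher, beside 6.01% of all genes tested. The 1 called lower was Klri1, beside 6.06% of all genes. Klrd1 and Klrk1 lie next to each other, and on their other sides Klre1 had a log2 fold change of 4.56 (SE 0.270) and Klrc2, beyond the scarcely read Klrc3, one of 5.71 (SE 0.349). The neighbours of the pair were thus close to absent in MSMs, at 3.31 and 4.44 CPM for Klre1 and 0.974 and 0.513 CPM for Klrc2 in MSMs from ndLN. Klrc1, which encodes the inhibitory NKG2A chain and pairs with CD94, was at 247 and 210 CPM in SSMs from ndLN and 3.33 and 1.72 CPM in MSMs from ndLN. Klri1, an NK cell receptor of the KLRI family, had the opposite pattern, with 3.15 and 1.44 CPM in SSMs from ndLN and 77.2 and 72.8 CPM in MSMs from ndLN. Its log2 fold change was -5.02 (SE 0.289, adjusted p = 3.53e-05 by edgeR's quasi-likelihood test) in ndLN and -3.99 (SE 0.279) in tdLN. Genes of the Klra (Ly49) family share much sequence, so that the split of reads between them is uncertain.

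**Figure D4:**
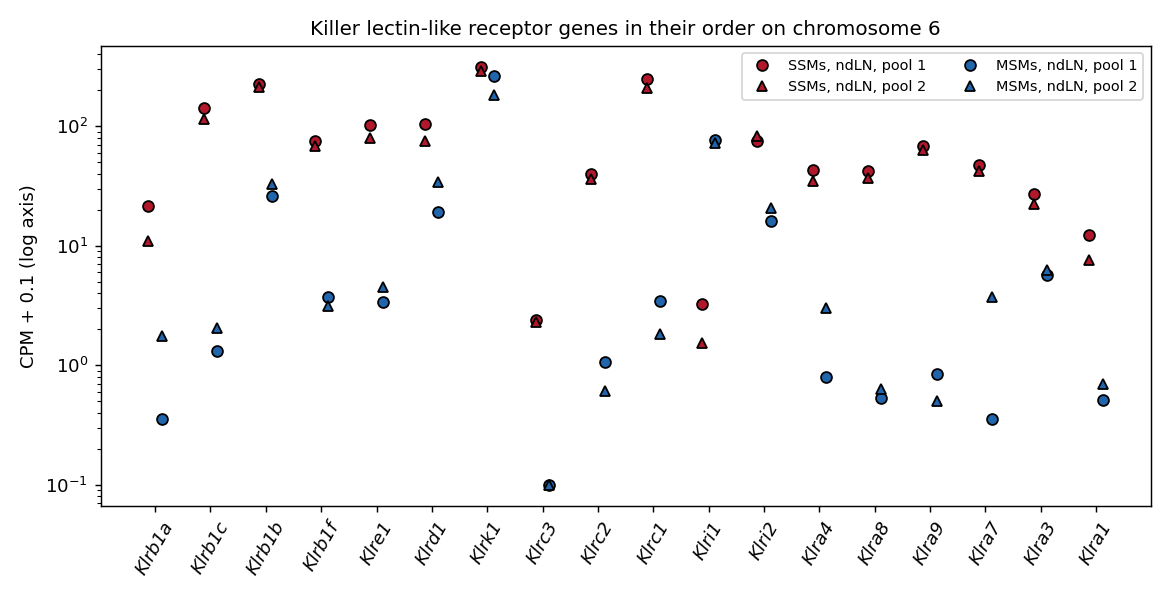
CPM plus 0.1 (log axis) of 18 killer lectin-like receptor genes, set in their order along chromosome 6, in the libraries of SSMs (red) and MSMs (blue) from ndLN, with circles for pool 1 and triangles for pool 2. The blue points lie below the red ones for most genes, close to them for Klrk1 (183 to 264 CPM against 291 to 315) and above them for Klri1 (72.8 to 77.2 CPM against 1.44 to 3.15).

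Other genes of the NK program were grouped by role, and the counts below are for SSMs against MSMs from ndLN, then from tdLN, beside the backgrounds of 6.01% and 5.16% of all genes called higher. Counts between nodes in SSMs stand beside 1.99% of all genes called higher and 1.05% called lower in tdLN. Of 23 further NK cell receptors, 18 were called higher and 2 lower in ndLN, and 17 and 2 in tdLN. The 2 lower ones were Klri1 and Slamf7, the latter a receptor also read in myeloid cells, with 87.3 and 73.0 CPM in SSMs from ndLN against 465 and 442 CPM in MSMs (log2 fold change -2.50, SE 0.157). Klra9, an inhibitory Ly49 receptor for MHC class I, had one of the largest differences, at 68.1 and 63.2 CPM against 0.744 and 0.401 CPM (6.88, SE 0.394), and Klrc1 had 6.52 (SE 0.337). Between nodes, 2 of the 23 receptors fell in SSMs from tdLN, Cd96 by 1.11 and Cd160 by 1.41 on the log2 scale.

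Of 14 adaptors and kinases that signal below these receptors, 9 were called higher in each node. Tyrobp, the adaptor DAP12 that is shared with macrophages, was at 827 and 469 CPM in SSMs from ndLN against 398 and 540 CPM in MSMs and was not called (0.45, SE 0.258). Fcer1g was higher in SSMs, at 984 and 567 CPM against 180 and 200 CPM (1.99, SE 0.217). Zap70, the kinase of T cells and NK cells, was at 138 and 157 CPM against 6.49 and 8.18 CPM (4.34, SE 0.182). Zap70 fell by 0.95 on the log2 scale (SE 0.148, adjusted p = 0.0094 by edgeR's quasi-likelihood test) in SSMs from tdLN against ndLN.

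The other granule genes did not follow Gzma, Gzmb and Prf1 as a group. Of 17 genes, 15 of them tested, 5 were called higher and 1 lower in ndLN, and 3 were called higher in tdLN. Serglycin (Srgn), the proteoglycan that packs granzymes but is made by many blood cells, was not called, at 1983 and 1483 CPM in SSMs from ndLN against 1563 and 1915 CPM in MSMs (0.0010, SE 0.171). Serpinb9, the inhibitor that protects cells from granzyme B, was not called (0.43, SE 0.146). Gzmc, a granzyme of activated lymphocytes, was at 34.8 and 29.0 CPM against 0.974 and 0.468 CPM (5.50, SE 0.431), and cathepsin W (Ctsw), a protease of cytotoxic lymphocytes, at 308 and 265 CPM against 11.9 and 16.1 CPM (4.37, SE 0.213). Cathepsin C (Ctsc), which matures granzymes and is abundant in macrophages, was the 1 granule gene that rose in SSMs from tdLN, from 901 and 596 CPM to 3204 and 2567 CPM (1.96, SE 0.136). Ctsc was named after its values were seen.

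Of 10 cytokines, chemokines and death ligands of cytotoxic lymphocytes, 7 were called higher in SSMs in ndLN and 6 in tdLN. Ccl4, made by macrophages as well, was not called, at 262 and 146 CPM in SSMs from ndLN against 518 and 572 CPM in MSMs. Ccl5 was at 964 and 648 CPM against 145 and 232 CPM in ndLN (2.15, SE 0.286) and was not called in tdLN (0.49, SE 0.272). Xcl1, the chemokine of NK cells that draws cross-presenting dendritic cells, was at 132 and 94.97 CPM against 4.03 and 4.57 CPM (4.77, SE 0.473), and Csf2, which encodes GM-CSF, at 36.0 and 51.3 CPM against 0.308 and 0.223 CPM (7.38, SE 0.370). Csf2 was the 1 gene of this group that fell in SSMs from tdLN, to 6.93 and 11.2 CPM (-2.28, SE 0.211).

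Of 12 further surface genes, 10 were called higher in SSMs in each node, and Cxcr3 was called lower in tdLN. The 12 were receptors for cytokines that act on NK cells, together with S1pr5, Cx3cr1, Cxcr3, Itga2 and Cd27. Il2rb, the beta chain through which NK cells and T cells receive IL-15 and IL-2, was at 2773 and 3051 CPM in SSMs from ndLN, 961 and 1126 CPM in tdLN SSMs, 62.5 and 86.6 CPM in MSMs from ndLN and 18.3 and 15.1 CPM in tdLN MSMs. It fell by 1.48 on the log2 scale in SSMs from tdLN (SE 0.159, adjusted p = 0.00259 by edgeR's quasi-likelihood test), as did Il18r1 by 1.34. Il2rg was at 746 and 813 CPM in SSMs from ndLN against 134 and 141 CPM in MSMs (2.50, SE 0.145). Il18rap was at 177 and 153 CPM against 2.85 and 5.46 CPM (5.30, SE 0.270). S1pr5, which lets mature NK cells leave lymph nodes, was low, at 12.03 and 12.9 CPM in SSMs from ndLN, and 0 or under 0.180 CPM in the 4 MSM libraries.

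Of 12 further transcription factors, 7 were called higher in SSMs in ndLN, and 6 higher and 1 lower in tdLN. Id2, required for all innate lymphoid cells but also read in dendritic cells, was at 1048 and 1161 CPM in SSMs from ndLN against 1419 and 1257 CPM in MSMs, and Nfil3 at 471 and 492 CPM against 526 and 501 CPM, neither of them called in ndLN. Ikzf3 (Aiolos) was at 383 and 526 CPM against 4.41 and 7.96 CPM (6.20, SE 0.226), and Gata3, a factor of T cells and type 2 innate lymphoid cells, at 133 and 163 CPM against 4.33 and 6.02 CPM (4.84, SE 0.192). Between nodes, 4 of the 12 factors fell in SSMs from tdLN (Tox, Ets1, Gata3 and Ikzf3) and 2 rose (Prdm1 and Zeb2), where 1.05% of all genes were called lower and 1.99% higher.

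The ligand side was also read. Of 15 ligands of NK receptors and cytokines that act on NK cells, 2 were called lower in SSMs in ndLN, Il12b and Pvr, and 1 in tdLN, Il12b. Il12b, a chain of IL-12, was at 22.5 and 73.6 CPM in SSMs from ndLN against 816 and 718 CPM in MSMs (-4.13, SE 0.494). Pvr, a ligand of the activating receptor DNAM-1, was at 61.8 and 46.6 CPM against 133 and 110 CPM (-1.17, SE 0.208), and H2-T23, which encodes the ligand of CD94 with NKG2A, was not called, at 517 and 402 CPM against 666 and 632 CPM. In SSMs from tdLN, 3 of the 15 rose (Nectin2, Cd48 and Il18). Il18 went from 23.1 and 11.1 CPM to 68.1 and 63.3 CPM (1.98, SE 0.284). Il18 was named after its values were seen.

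Markers of other cell types were read in the same libraries, since many of the genes above are shared among lymphocytes. Of 12 T cell markers, 11 were called higher in SSMs from ndLN and 1, Cd8a, lower, and they summed to 2780 and 3049 CPM in SSMs from ndLN, 1283 and 1458 CPM in tdLN SSMs, 881 and 760 CPM in MSMs from ndLN and 506 and 538 CPM in tdLN MSMs. In MSMs the largest part of these sums was Cd8a, at 605 and 386.5 CPM in ndLN and 357 and 439 CPM in tdLN. Cd8b1 was at 16.8 and 17.2 CPM in MSMs from ndLN and 4.53 and 3.54 CPM in tdLN MSMs. Cd3e, although CD3 was excluded in the gate, was at 151 and 143 CPM in SSMs from ndLN and 12.3 and 16.3 CPM in MSMs from ndLN. All 6 gamma delta T cell receptor genes were called higher in SSMs in both nodes, with sums of 246 and 273 CPM in SSMs from ndLN, 118 and 125 in tdLN SSMs and 1.10 to 7.56 in MSMs. So were all 8 type 3 innate-like lymphoid markers, with sums of 887 and 1114 CPM, 276 and 245 CPM, and 7.07 to 23.2 CPM in MSMs. Of 6 markers used to tell type 1 innate lymphoid cells (ILC1) from NK cells, 4 were called higher in SSMs in both nodes. These were Tnfsf10, Il7r, Cxcr6 and Tcf7. Itga1 was lower in SSMs without a call (-0.86, SE 0.293, in ndLN and -0.88, SE 0.345, in tdLN). Cd200r1 was not called either (0.95, SE 0.243, in ndLN and -0.08, SE 0.262, in tdLN). The list summed to 2668 and 3413 CPM in SSMs from ndLN, mostly Il7r, Cxcr6 and Tcf7. The sums were 997 and 1099 CPM in tdLN SSMs and 81.8 to 172 CPM in MSMs. The 10 members, for comparison, summed to 3686 and 2969 CPM in SSMs from ndLN and 2266 and 3248 CPM in tdLN SSMs. In MSMs they summed to 378 and 367 CPM in ndLN and 260 and 290 CPM in tdLN. Klrk1, not called between subsets, was the largest part of the sums in MSMs. It was at 264 and 183 CPM there in ndLN and 195 and 217 CPM in tdLN.

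The sums of these lymphoid lists and of the members were ordered alike between SSMs and MSMs. In MSMs they were also ordered alike between nodes, with the tdLN libraries below the ndLN libraries for each list and for the members. Between nodes in SSMs they were not. In SSMs, the tdLN libraries lay below the ndLN libraries for the T cell, gamma delta, type 3 and ILC1 lists, whereas those of the members overlapped. Genes called between nodes in SSMs numbered 2 of 12 for T cells (Cd4 and Cd8b1), 1 of 6 for gamma delta T cells (Tcrg-C4), 4 of 8 for type 3 lymphoid cells (Il23r, Il17f, Il22 and Ccr6) and 3 of 6 for ILC1 (Il7r, Cxcr6 and Tcf7), all of them lower in tdLN, against 0 of the 10 NK and cytotoxic effector genes. Over all genes tested 1.05% were called lower in the same comparison, so that 0 of 10 is near the background and does not set the effector genes apart. The difference between the lists was not tested. In either subset the part of other lymphocytes in the values of the 10 genes was not tested.

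Further lists gave no uniform picture. Of 10 mast cell and basophil markers, 7 were called higher in SSMs in ndLN, and 6 higher and 1, Kit, lower in tdLN. They summed to 2810 and 1840 CPM in SSMs from ndLN and 272 and 615 CPM in tdLN SSMs. In MSMs the sums were 608 and 622 CPM in ndLN and 375 and 270 CPM in tdLN. Nearly all of the sums in MSMs was Kit, at 606 and 614.5 CPM in ndLN and 374 and 269 CPM in tdLN. Kit thus went against the list (-2.25, SE 0.231, in tdLN), and Ms4a2 was at 0 in all MSM libraries. For 6 ILC2 markers, 4 were higher in SSMs from ndLN and 1 in tdLN, and the sums were 210 and 213, 69.9 and 116, 38.2 and 33.2, and 40.8 and 24.3 CPM in the order used for the members. Of 7 neutrophil markers, 2 were higher in SSMs in ndLN and 4 in tdLN, with sums of 31.3 to 455 CPM in SSMs and 0.572 to 2.26 CPM in MSMs, and Ly6g, the protein excluded by the gate, was at 0 in every library but 1. Of 7 B cell markers the 1 called was Blnk, lower in SSMs in tdLN, and the sums were 27.3 to 55.9 CPM over the 8 libraries. Plasmacytoid dendritic cell markers were called lower for 1 of 6 in ndLN and 2 in tdLN, with sums of 175 to 303.5 CPM. Conventional dendritic cell markers were lower in SSMs for 5 of 7 in ndLN and 7 in tdLN, with sums of 700 to 2133 CPM in SSMs and 3497 to 3989 CPM in MSMs. Lymph node macrophage markers, 8 in all, were called higher for 3 and lower for 2 in ndLN and higher for 4 in tdLN, and 5 of them rose in SSMs from tdLN against ndLN, with sums of 9095 and 5910 CPM in SSMs from ndLN, 22290 and 15240 CPM in tdLN SSMs and 4663 to 5289 CPM in MSMs.

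**Figure D5:**
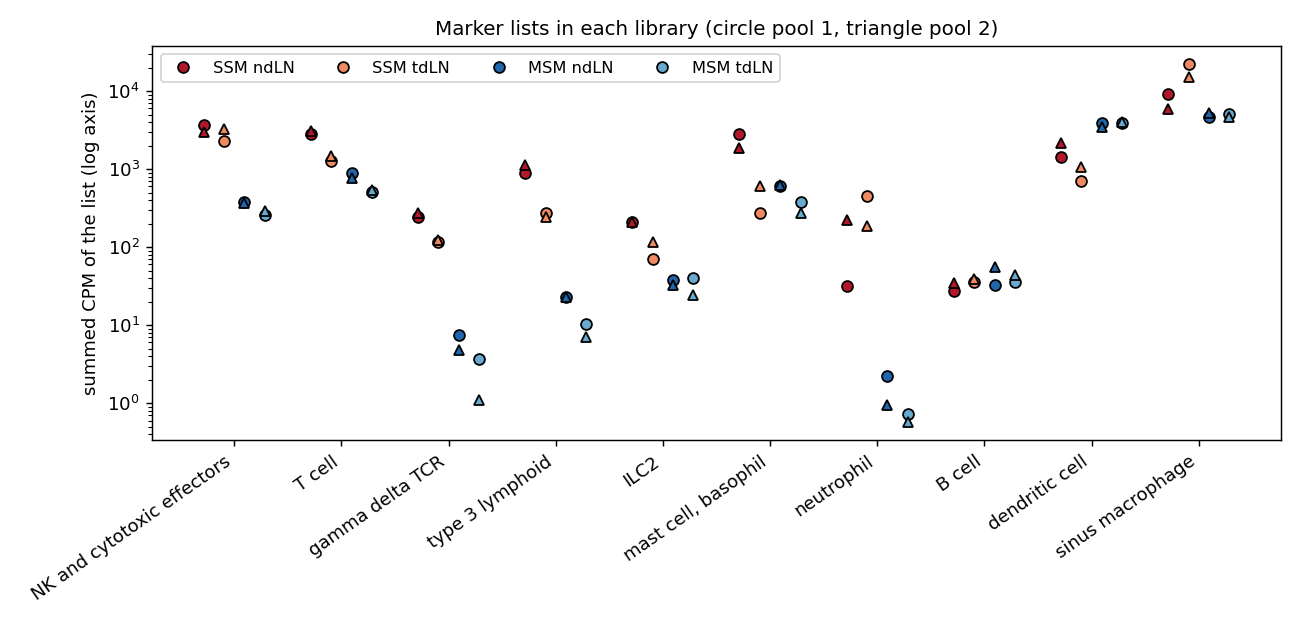
Summed CPM (log axis) of the NK and cytotoxic effector genes and of 9 marker lists in each library, with colours for the 4 groups, circles for pool 1 and triangles for pool 2. The effector genes sum to 2266 to 3686 CPM in SSMs and 260 to 378 CPM in MSMs, where Klrk1 is the largest part. The T cell, gamma delta, type 3, ILC2, neutrophil and sinus macrophage lists are also higher in SSMs, while the dendritic cell list is higher in MSMs.

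Across the 8 libraries the members followed each other. Pearson's r between log2(CPM + 1) of a gene and the mean of the other members was 0.954 to 0.995 for 9 of the genes and 0.757 for Klrk1, given as a description over n = 8 libraries that fall into SSMs and MSMs. Among 9827 genes outside all lists with a mean normalized count over 100, the profiles most like the mean of the members were those of Trbj1-1 (r = 0.995), Icam2 (0.995), Ly6g5b (0.994), Thy1 (0.994), Actn2 (0.994) and Ifitm10 (0.994), again over 8 libraries. Trbj1-1 is a joining segment of the T cell receptor beta locus, with means of 17.5 CPM in SSMs from ndLN, 10.5 in tdLN SSMs, 0.726 in MSMs from ndLN and 0.0242 in tdLN MSMs. Thy1, a surface marker of T cells and of some innate lymphocytes, had means of 33.9, 18.7, 1.28 and 0.508 CPM, and Icam2, an adhesion molecule of lymphocytes and endothelium, 46.5, 30.4, 7.85 and 5.45 CPM in the same order.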

How the data were processed

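The deposited table holds raw counts per gene for 16 samples, made by the authors without normalization. Libraries were prepared with the SMART-Seq v4 kit and sequenced on an Illumina HiSeq. The submitters' processing notes name bcl2fastq 2.20.0.422, Trimmomatic 0.36 and STAR 2.5.3a, with the GRCm38 build. The strand setting and the annotation are not given in the sources used here, and symbols, coordinates and lengths were taken from GENCODE M21 on mm10 (55154 identifiers with a symbol). All 16 columns were mapped to samples by name. The 10 genes and all gene lists were chosen with earlier results of these data known.

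Lanes 3 and 4 of a library were summed, since they differed by no more than sampling noise (chi-square per degree of freedom 0.955 to 1.015 between lanes, 29.3 to 53.1 between libraries of a group). Depth was 42972328 to 48130352 reads per library, and a floor of 3 counts covers counting error only. The table has 2 further rows for added sequences, with 6 counts, which were left out. Genes with at least 10 counts in all and detection in at least 2 samples were fitted in edgeR 4.0.16 (R 4.3.3) by glmQLFit with TMM factors (0.902 to 1.15), group means and pool as a term, as the models of the study contain the pool. All p-values are two-sided and adjusted by Benjamini-Hochberg over 21085 genes, and SE is the fold change over the square root of F. The pool numbers are those of the nodes in the source names of the labels (1 title lacks it), which do not use the word pool. The study describes 4 pools with 4 samples each, whereas the 16 samples are 2 lanes of 8 libraries numbered 1 or 2, so that the meaning of the pool term is uncertain. The departures of equally numbered libraries from their group means had Pearson correlations of -0.19 to 0.15 over the 6 pairs of groups (10000 genes), of either sign. The steps were tested on simulated counts.

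Levels per kb divide CPM by the union of exon bases. Named genes were all 10 members, for each NK list the 2 with the highest level per kb and the 2 with the largest fold change among those called in SSMs against MSMs from ndLN, and the 6 genes outside the lists with the profile most like the members'. The values of 1 gene that this rule names are not reported here. Others named are sort markers, called genes of a counted list, or genes named after their values were seen. Among the latter are Klrc3, Ms4a2, Ly6g, Itga1 and Cd200r1. Alternatives were the fit without pool, edgeR's legacy fit, DESeq2 1.42.0, its size factors, other filters, single lanes, other thresholds, only the groups compared, each library left out, and the longest transcript as length. Promoter sequences are from RefSeq (GRCm38.p6).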

Additional observations from a re-analysis of the deposited data

How the results depend on the processing

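The 9 calls higher in SSMs were made again in both nodes under every alternative that keeps all libraries, except that Klrd1 was lost in ndLN when only the groups compared were fitted (1.86, with adjusted p values between 1.49e-07 and 0.0545 over the alternatives of that result). Leaving out 1 library gave 8 or 9 calls in each node, with Klrd1 as the gene that was lost. The fit without the replicate block called 9, 9, 0, 0 and 0 genes in the 5 comparisons (subsets in ndLN, subsets in tdLN, nodes in SSMs, nodes in MSMs, interaction), as did the fit with it, and changed no call on the 10 genes. With the Wald test of DESeq2 the node comparison called 1 gene in SSMs and 4 in MSMs, and the interaction called 2. An adjusted p under 0.05 called 2 genes between nodes in MSMs. Over the alternatives the number of all genes called reached 3885 for subsets in ndLN and 3023 for subsets in tdLN. It reached 1932 for nodes in SSMs, 496 for nodes in MSMs and 677 for the interaction. Other alternatives called fewer, and the cause of this spread was not tested, also where 1 library was left out. The interaction of Klrd1, 0.00024, changed sign to -0.0181 with the legacy fit, -0.0463 with DESeq2, -0.0270 with its size factors, -0.000107 with no filter on low counts, -0.00690 with filterByExpr and -0.0370 with lane 3 alone. Leaving out 1 library turned the sign of these log2 fold changes that were not called. For nodes in SSMs the ranges were -0.85 to 0.70 for Gzma, -0.82 to 0.11 for Gzmb, -0.83 to 0.30 for Nkg7, -0.60 to 0.35 for Ncr1 and -0.58 to 0.30 for Klrd1. For nodes in MSMs they were -0.046 to 0.79 for Ncr1, -0.77 to 0.14 for Klrb1c, -0.55 to 0.30 for Klrd1 and -0.39 to 0.20 for Klrk1. For the interaction they were -0.54 to 0.38 for Klrb1c, -0.44 to 0.44 for Klrd1, -0.44 to 0.15 for Klrk1 and -0.12 to 0.94 for Eomes. With the longest transcript as length, 31 of 40 mean levels per kb moved by less than their SD, and 9 moved by more, all of them of Klrd1, Klrk1 or Eomes. The fit to only the groups compared was not run for the interaction, which uses all 4 groups. Each of the 10 genes had at least 37 reads in every library, the lowest counts being those of MSMs, and each group had 2 libraries.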
